A study of Homo sapiens with 2 samples.

Results

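Nuclear receptors and the coactivators that work with the arginine methyltransferase CARM1 were followed as a group of 53 genes, 46 receptors and 7 coactivators, out of the 57736 genes of the count table. The genes were taken by symbol from a list of the receptor superfamily together with the p160 coactivators, the PGC-1 coactivators, EP300 and CREBBP. The table held 52 of them, and NR2E3 was not analysed here. RNA was measured by sequencing in A1847 cells, an epithelial ovarian cancer line with high CARM1, in 1 library of parental control cells that are wild type for CARM1 and in 1 library of CARM1 KO cells. The knockout had been made with a lentiviral CRISPR vector carrying a single CARM1 guide, and it was 1 clone. Both cultures were grown in RPMI medium with fetal bovine serum, and no hormone or drug treatment is given for either. A clone can differ from its parental population in ways unrelated to CARM1, and with these libraries such differences and the loss of CARM1 cannot be told apart.

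Nuclear receptors are transcription factors that bind short DNA elements alone, as pairs of one receptor, or as heterodimers with a retinoid X receptor, and many of them change activity when a small lipophilic ligand such as a steroid, a retinoid, thyroid hormone or a fatty acid enters their binding pocket. A ligand-bound receptor recruits p160 coactivators (NCOA1, NCOA2 and NCOA3), which in turn bring the acetyltransferases CBP and p300 and the methyltransferase CARM1, a name that stands for coactivator-associated arginine methyltransferase. In the ovary and its tumors, receptors for estrogen, progesterone, glucocorticoids and retinoids are the best known members of the superfamily.

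The parental library held 30741953 estimated reads and the CARM1 KO library 32300391. CARM1, the targeted gene, had 975 parental and 380 KO reads, 2.65-fold lower (95% interval 2.35 to 2.99), so its RNA was reduced and not lost. With 1 library per condition there was no replicate check and no P value. A gene was called higher or lower when its scaled fold exceeded 3 with an exact 95% binomial interval that left out 1, among genes whose reads over both libraries summed to 10 or more. These intervals cover counting error only and compare the libraries, not the conditions. Of 9 epithelial and ovarian tumor markers, 7 could be tested, of which 5 were higher and 1 lower after CARM1 KO, and their summed level was 346 RPKM (reads per kilobase of exon, scaled by library size) in parental and 1065 in CARM1 KO cells. In the order parental then CARM1 KO, KRT8 had 17600 and 70370 reads, PAX8 311 and 1149, EPCAM 249 and 848, KRT7 4417 and 26653, and KRT18 21154 and 51223. CDH1, which encodes E-cadherin, had 3 and 53, KRT19 45 and 0, WT1 8 and 1, and MUC16 0 and 1, so these 4 epithelial and ovarian markers were near 0 in 1 or both libraries. Read pairs below are given in this order. Of 6 fibroblast markers, 1 was higher and 4 were lower, with a summed level of 54.9 RPKM in parental and 2.52 in CARM1 KO cells. COL1A2, with 16732 and 3 reads, held 49.9 RPKM of the parental sum. THY1 had 678 and 4 reads, LUM 61 and 1, and DCN 24 and 0. COL1A1 was the higher one, with 131 and 537, and PDGFRB, with 132 and 142, was not called. Of the leukocyte and endothelial markers, PTPRC had 6 and 0 reads, CD3E and CDH5 had 0 in both libraries, VWF had 1 and 2, CD14 had 1 and 9, and CD68 had 400 and 1644. These marker differences lie between the same libraries as every comparison given here, and their part in the results was not tested. In bulk RNA, fewer cells that carry a transcript and less of it per cell cannot be told apart.

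Of the 52 genes in the table, 43 passed the minimum of 10 reads. In CARM1 KO cells 10 of the 43 were higher (23.3%), 8 were lower (18.6%), and 25 did not pass the 3-fold rule in either direction. Among all 18563 genes tested, 12.3% were higher and 11.3% were lower, and among the 14140 protein-coding genes tested the shares were 12.3% and 9.1%. The median log2 fold of the 43 genes was 0.03, with quartiles at -1.35 and 1.32. For all genes tested the median was -0.03 with quartiles at -0.70 and 0.68, and for protein-coding genes it was 0.02 with quartiles at -0.59 and 0.70. The middle of the group therefore sat near that of all genes, and its spread was wider.

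The 10 genes called higher were NR3C1, PGR, NR3C2, VDR, NR1D2, RORA, NR2E1, NR2F2, NR0B1 and the coactivator PPARGC1A. The 8 called lower were NR2F1, NR6A1, ESRRG, RARB, PPARG, NR2F6, RARG and NR1I3, all of them receptors. Of the 36 receptors tested, 9 were higher (25%) and 8 lower (22.2%). Of the 7 coactivators, 1 was higher (14.3%) and 0 lower. The shares of all genes were 12.3% and 11.3%. With an assumed coefficient of variation of 0.4 between samples in the exact test of edgeR, 9 of the 18 calls remained, namely RORA, NR2E1 and PPARGC1A as higher and NR2F1, NR6A1, ESRRG, RARB, PPARG and NR2F6 as lower, and the calls of NR3C1, PGR, NR3C2, VDR, NR1D2, NR2F2, NR0B1, RARG and NR1I3 were lost. With at least 50 reads required, NR0B1, PPARGC1A and NR1I3 were not tested.

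**Figure D1:**
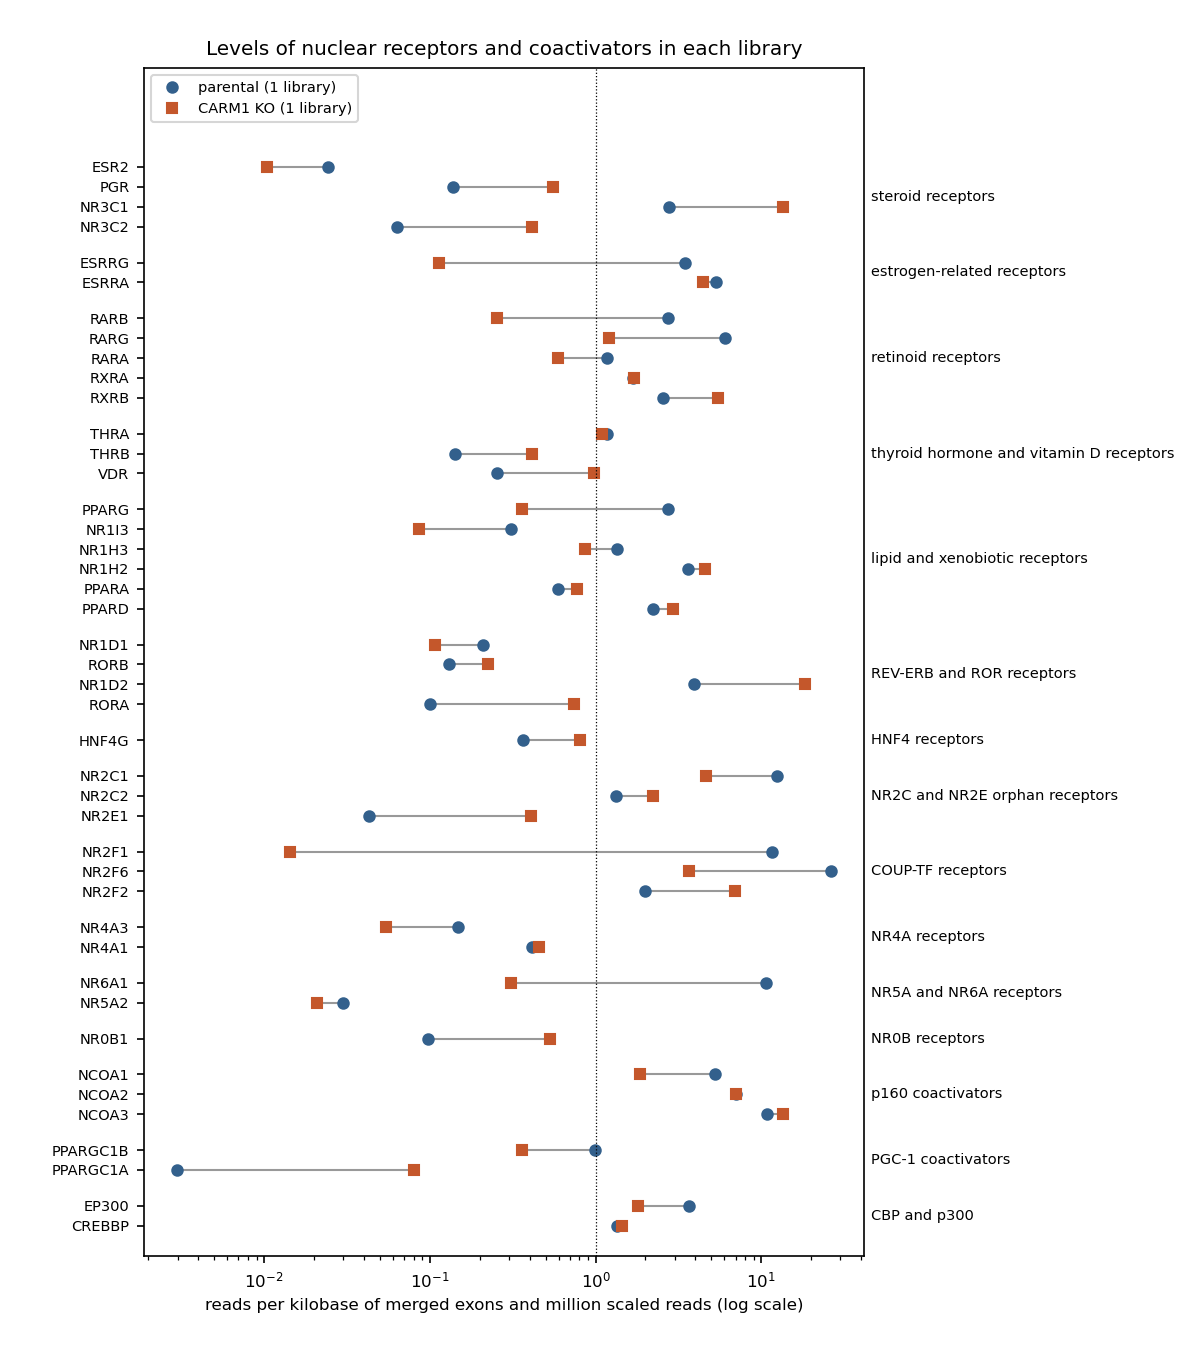
Level of each receptor and coactivator that passed the minimum of 10 reads, in reads per kilobase of merged exons and scaled library size (RPKM) on a log axis, in the parental library (circles) and the CARM1 KO library (squares), grouped by receptor class. The number of genes at or above 1 RPKM (dotted line) was 25 in parental and 18 in CARM1 KO cells, and the widest gap is that of NR2F1, from 11.6 to 0.0143 RPKM.

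The threshold left several genes close to it. Inside it, NR2F2 was 3.52-fold higher and NR1I3 3.56-fold lower. Outside it, THRB was 2.93-fold higher (2.10 to 4.14) and NCOA1 was 2.82-fold lower (2.56 to 3.13). In all, 8 genes differed by between 2-fold and 3-fold with an interval that left out 1. RXRB, THRB and HNF4G were the 3 higher ones, and NR2C1, NR4A3, NCOA1, PPARGC1B and EP300 the 5 lower ones.

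**Figure D2:**
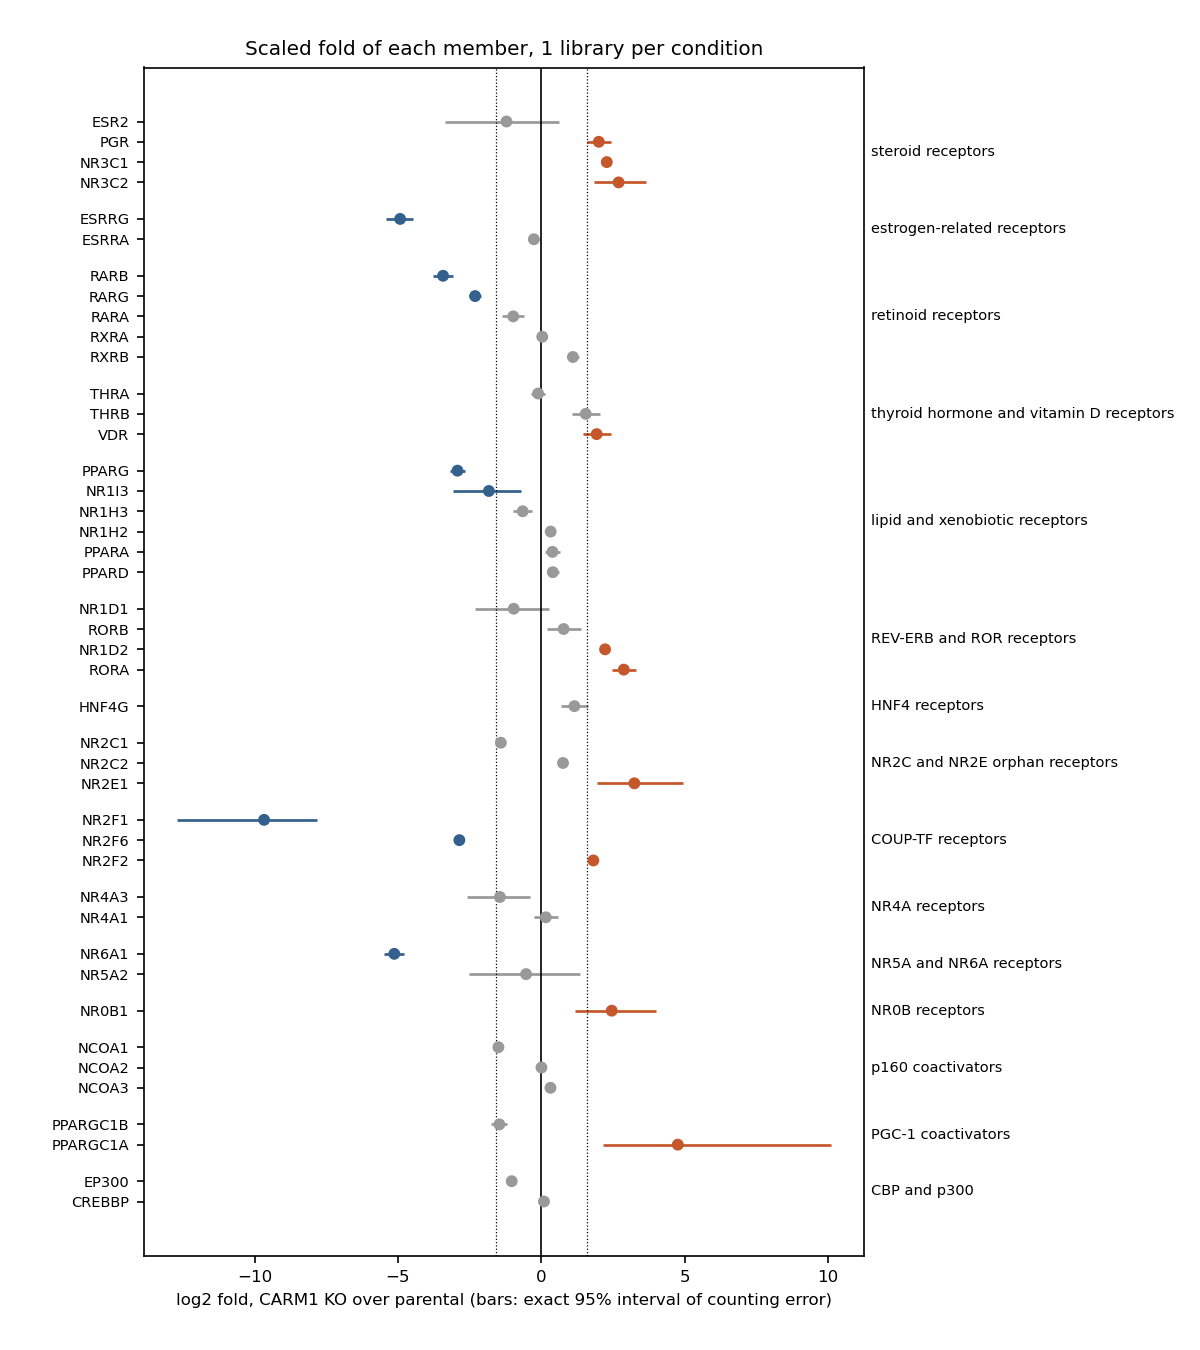
Scaled log2 fold of CARM1 KO over parental for the 43 receptors and coactivators tested, with bars for the exact 95% interval of counting error and dotted lines at 3-fold in each direction. The bars of NR2F1, PPARGC1A, NR2E1 and NR0B1 are the wide ones among the called genes, with 2, 1, 5 and 6 reads in the lower library.

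Levels of different genes were compared per length only. In parental cells, 25 of the 53 genes reached 1 RPKM, and in CARM1 KO cells 18 did, all 18 of them also at 1 RPKM in parental cells. The most abundant in parental cells was NR2F6 at 26.5 RPKM, at percentile 90.1 of the protein-coding genes tested. NR2C1 (12.4), NR2F1 (11.6), NCOA3 (10.8) and NR6A1 (10.7) came next, and the counting intervals of neighbors in this order overlapped. NCOA2 followed at 7.05. In CARM1 KO cells the order was another one. NR1D2 led at 18.3 RPKM (percentile 85.2), followed by NR3C1 at 13.6 and NCOA3 at 13.5, whose intervals overlapped, and then by NCOA2 at 7.07 and NR2F2 at 6.97, which also overlapped. Of the 5 genes at the top in parental cells, NR2F1 and NR6A1 were below 1 RPKM in CARM1 KO cells.

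**Figure D3:**
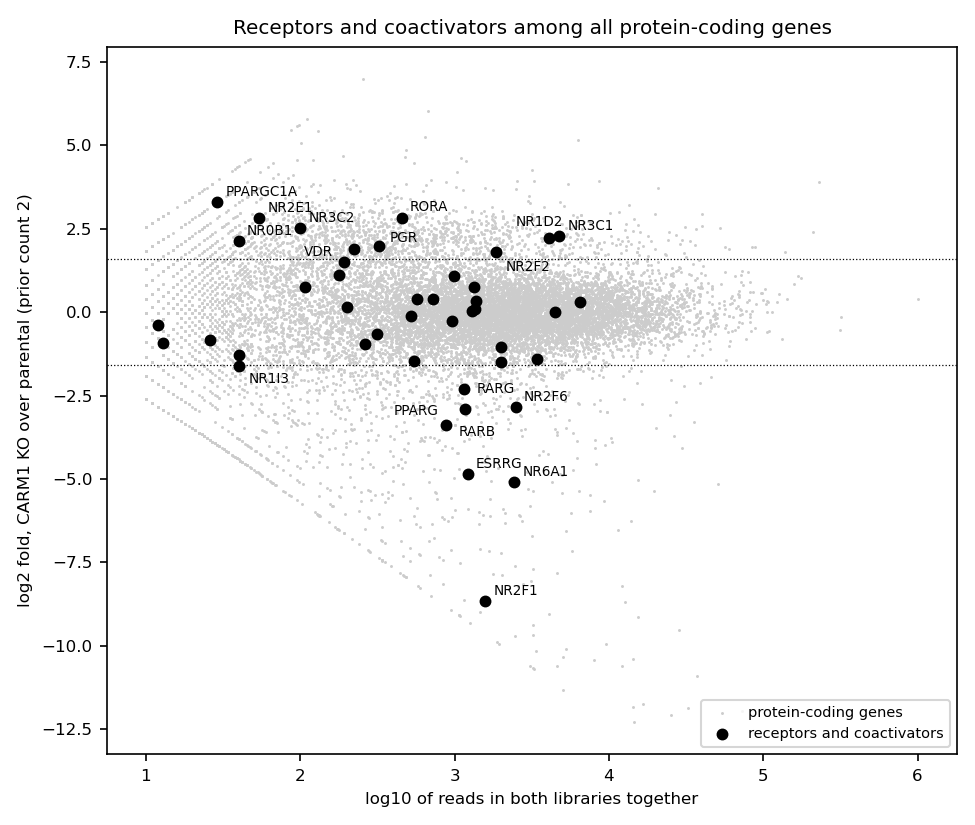
Log2 fold of CARM1 KO over parental (prior count of 2) against the log10 of the reads in both libraries together, for protein-coding genes with at least 10 reads (gray) and for the receptors and coactivators (black, called genes named). Dotted lines mark 3-fold, and NR2F1 lies at a log2 fold of -8.66 near the lower edge of the gray points at its depth.

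The receptors for corticosteroids and progesterone were higher in CARM1 KO cells, whereas estrogen receptors were scarcely read in either library. NR3C1, the glucocorticoid receptor, had 792 parental and 3979 KO reads, 4.86-fold higher (4.51 to 5.26), and moved from 2.79 to 13.6 RPKM. It spans chromosome 5 from 142657496 to 142815077 (minus strand, GRCh37, as are all gene positions given). NR3C2, the mineralocorticoid receptor, was 6.48-fold higher (3.60 to 12.7) with 13 and 87 reads, a level of 0.0635 and 0.411 RPKM. PGR, the progesterone receptor and a classic estrogen-induced gene, was 4.01-fold higher (3.04 to 5.37) with 63 and 261 reads, or 0.138 and 0.555 RPKM. NR3C1 therefore made up nearly all of the summed steroid receptor level, which was 3.01 RPKM in parental and 14.5 RPKM in CARM1 KO cells. PGR lies in a stretch of chromosome 11 where the 10 nearest protein-coding genes tested had a median log2 fold of 1.64, against -0.19 around both NR3C1 and NR3C2. The part of the neighborhood in the PGR result was not tested. ESR2, which encodes estrogen receptor beta, had 9 and 4 reads, a ratio whose interval included 1. ESR1, which encodes estrogen receptor alpha, had 0 reads in both libraries, which allows up to 3 reads per library, or 0.00705 RPKM in parental cells.

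Genes known to respond to these hormones were taken from lists and did not move in one direction. Of 10 glucocorticoid response genes tested, 1 was higher (10%) and 4 were lower (40%), against 12.3% and 11.3% of all genes, with a median log2 fold of -0.47 against -0.03. SGK1, a kinase induced by corticosteroids in many cell types, had 145 and 901 reads, 6.02-fold higher (5.04 to 7.22). The other called genes were lower. PER1, a clock gene with a known glucocorticoid response, had 145 and 22 reads, 6.81-fold lower (4.33 to 11.2). FKBP5, the co-chaperone that lowers hormone binding by the glucocorticoid receptor, had 3620 and 1060 reads, 3.53-fold lower (3.29 to 3.78). KLF9, a zinc finger factor, had 453 and 134 reads, 3.49-fold lower (2.87 to 4.27). Of the 5 genes not called, DUSP1 had 987 and 3045 reads, 2.99-fold higher (2.78 to 3.21), just under the rule. CRISPLD2 was 2.73-fold higher with 11 and 31 reads, and TSC22D3 had a ratio whose interval included 1. CEBPD was 1.74-fold and ERRFI1 1.11-fold lower. Higher reads of the receptor thus went with lower reads of PER1, FKBP5 and KLF9 and higher reads of SGK1 and DUSP1. Of 9 estrogen response genes tested, 2 were higher (22.2%) and 1 was lower (11.1%), against the same 12.3% and 11.3% of all genes, with a median of 0.63. CA12, a carbonic anhydrase, had 241 and 28 reads, 8.89-fold lower (5.996 to 13.7). STC2, a secreted glycoprotein, was 3.63-fold higher (3.22 to 4.10) with 345 and 1294 reads, and RET had 2 and 11 reads, a ratio of 5.33 (1.16 to 49.4). IGFBP4, at 190 and 566 reads, differed by less than 3-fold.

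Among enzymes of steroid and vitamin D metabolism, 7 of 17 listed genes had 0 reads in both libraries and 7 could be tested. CYP27A1, the mitochondrial sterol hydroxylase, was the only one called, with 3 and 52 reads, a ratio of 16.8 (5.43 to 84.0). CYP27B1, CYP11A1 and STS had 17 and 41, 16 and 9, and 249 and 403 reads and did not pass the rule. Of the 8 chaperones and co-chaperones that hold steroid receptors ready for ligand, FKBP5 alone was called. The abundant HSP90AA1 was 1.79-fold higher and HSP90AB1 1.74-fold lower, at 353 and 631 RPKM and at 895 and 516 RPKM, so the levels of these paralogs changed order between the libraries, and AHSA1, an HSP90 cofactor, was 1.66-fold lower.

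The estrogen-related receptors, orphan receptors that act on genes of oxidative metabolism, differed sharply among themselves. ESRRG had 1178 parental and 40 KO reads, 30.4-fold lower (22.2 to 42.8), a level of 3.48 and 0.114 RPKM. ESRRA had 515 and 444 reads, 1.20-fold lower (1.05 to 1.36), at 5.36 and 4.47 RPKM, and ESRRB had 0 reads in both libraries. ESRRA therefore made up 60.6% of the family's summed level in parental and 97.5% in CARM1 KO cells. These shares depend on the length used. ESRRG has 10932 bases of merged exons and a longest transcript of 5542, and ESRRA has 3101 and 2293. Exons of ESRRA share 9.16% of their length with TRMT112 on the opposite strand, which had 3349 and 4615 reads. The part of that overlap in the ESRRA count was not tested. ESRRG spans chromosome 1 from 216676588 to 217311097 (minus strand). The 10 nearest protein-coding genes tested had a median log2 fold of -1.14 and reached from -2.75 to 2.02, against -4.86 for ESRRG itself. The part of this neighborhood in the result was not tested.

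The retinoic acid receptors RARB and RARG were called lower in CARM1 KO cells, and none of their heterodimer partners, the retinoid X receptors RXRA, RXRB and RXRG, was called. RARB had 803 and 77 reads, 10.8-fold lower (8.52 to 13.8), and moved from 2.74 to 0.255 RPKM. RARG had 956 and 199 reads, 4.96-fold lower (4.25 to 5.81), at 6.01 and 1.21 RPKM. RARA had 172 and 90 reads, 1.97-fold lower (1.52 to 2.58), which did not pass the 3-fold rule. The summed level of the 3 receptors was 9.92 RPKM in parental and 2.06 RPKM in CARM1 KO cells, and RARG held 60.6% of it in parental and 58.9% in CARM1 KO cells. RXRA, the partner of many receptors, had 627 and 662 reads, a ratio of 1.02 (0.915 to 1.14) whose direction depended on the scaling used. RXRB had 307 and 680 reads, 2.14-fold higher (1.87 to 2.46), and RXRG had 0 in both libraries. Exons of RXRB share 9.26% of their length with SLC39A7 on the opposite strand, which had 2346 and 3506 reads. The part of that overlap in the RXRB count was not tested. The summed RXR level was 4.21 RPKM in parental and 7.16 RPKM in CARM1 KO cells. RARB spans chromosome 3 from 24729378 to 25639423 (plus strand) and RARG chromosome 12 from 53604351 to 53626764 (minus strand), and the medians of the log2 folds of their neighbors were 0.41 and -0.18.

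RARB is the textbook example of a retinoic acid receptor gene that carries a response element for retinoic acid receptors in its own promoter, so its start region is shown. The promoter windows of RefSeq (GRCh38.p14) run from 250 bases before a transcript start to 50 bases after it, and 106 windows of 47 of the 53 genes were searched. A search on both strands for a direct repeat of AGGTCA or AGTTCA or GGTTCA or GGGTCA with any 5 bases between the repeats found a match in 31 of all 35116 windows (0.0883%) and in 1 window of 1 receptor, RARB. Of the other genes listed for retinoid signaling, CYP26A1, a retinoic acid hydroxylase, had a match, on its minus strand. The 250 bases before the RARB start (chr3:25428013-25428262, plus strand) and 30 bases around the CYP26A1 match (chr10:93073797-93073826, plus strand) are given 5′ to 3′ with the matched repeat in capitals. In RARB it lies 53 to 37 bases before the start and in CYP26A1 90 to 74 bases before it.
RARB: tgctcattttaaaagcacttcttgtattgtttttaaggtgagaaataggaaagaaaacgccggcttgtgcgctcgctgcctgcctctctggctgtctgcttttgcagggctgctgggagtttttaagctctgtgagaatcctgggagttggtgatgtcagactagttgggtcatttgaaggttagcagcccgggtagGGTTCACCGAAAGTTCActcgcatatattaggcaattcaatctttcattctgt
CYP26A1: taaagaTGAACTTTGGGTGAACTaattgtc
A letter match is a description and not a bound site. RARB was 10.8-fold lower, whereas CYP26A1 had 29 and 24 reads, a ratio whose interval included 1. Repeats of the same letters spaced by 1, 2 or 4 bases were found in 0 windows of the receptors and coactivators, and in 46, 14 and 30 of all windows. AGAACA followed after any 3 bases by TGTTCT, the palindrome known for glucocorticoid receptors, and GGTCA followed after any 3 bases by TGACC, that of estrogen receptors, were likewise in 0 of them and in 1 and 20 of all windows. The single AGGTCA, which any of these repeats can contain, was in 15.1% of the 106 windows and in 13.8% of all. AGGTCA directly after AANT, the element known for REV-ERB and ROR, was in 0.168% of all windows and in another window of RARB. BMAL1, a gene of the clock list, also held this element in a window, 27 to 36 bases after the start.

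Genes that carry, make or break down retinoids moved in both directions. Of 10 tested, 4 were higher and 3 lower, shares of 40% and 30% against 12.3% and 11.3% for all genes, with a median log2 fold of 0.47. The genes named by the size of their change were mostly lower ones. CRABP2, which delivers retinoic acid to its receptors in the nucleus, had 11354 parental and 126 KO reads, 93.1-fold lower (78.1 to 112), a level of 338 and 3.64 RPKM. RDH10, which makes retinaldehyde from retinol, had 27980 and 1727 reads, 16.7-fold lower (15.9 to 17.6). STRA6, a membrane protein of retinol uptake, had 287 and 10 reads, 29.6-fold lower (15.9 to 62.5). ALDH1A1, an enzyme that oxidizes retinaldehyde to retinoic acid, had 2 and 21 reads, a ratio of 10.2 (2.49 to 89.4). The other called genes were ALDH1A2 (7 and 27 reads), ALDH1A3 (139 and 585) and LRAT (15 and 96), all higher. The 3 retinaldehyde dehydrogenases were thus all called higher while STRA6, RDH10 and CRABP2 were lower. ALDH1A1 and ALDH1A2 stood at 0.231 RPKM or less in both libraries and lost their calls with at least 50 reads. At an assumed coefficient of variation of 0.4, all 3 dehydrogenases and LRAT lost their calls, whereas STRA6, RDH10 and CRABP2 kept theirs. The list of retinoic acid response genes shares CRABP2 and STRA6 with the list above. Of its 8 genes tested, 0 were higher and these 2 were lower (25%), against 12.3% and 11.3% of all genes. Their median was 0.08. CYP26B1, at 14 and 37 reads, and DHRS3, at 14 and 5, both enzymes of retinoid turnover, were not called.

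The thyroid hormone and vitamin D receptors stood at 1.18 RPKM or less in both libraries, and VDR was called higher. VDR, the receptor for the active form of vitamin D, had 45 and 177 reads, 3.81-fold higher (2.73 to 5.41), and moved from 0.256 to 0.974 RPKM. THRB was 2.93-fold higher with 48 and 145 reads and was not called. THRA had 268 and 256 reads, a ratio whose interval included 1. THRA accounted for 89.3% of the summed level of the thyroid hormone receptors in parental and 72.5% in CARM1 KO cells. Its exons share 473 bases with NR1D1 on the opposite strand, 18.0% of the exons of NR1D1, and whether counting used strand is not given in the sources used here, so reads of that stretch could not be assigned to one gene with certainty.

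Among receptors for fatty acids, sterols and xenobiotics, PPARG and NR1I3 were called, both lower in CARM1 KO cells. PPARG, the receptor known for driving fat cell differentiation, had 1022 parental and 139 KO reads, 7.59-fold lower (6.35 to 9.13), a level of 2.75 and 0.362 RPKM. It spans chromosome 3 from 12328867 to 12475855 (plus strand), and its neighbors had a median log2 fold of 0.31. PPARA, known for fatty acid oxidation, and PPARD were 1.31-fold (1.10 to 1.55) and 1.32-fold (1.14 to 1.53) higher, with 242 and 327 and with 308 and 420 reads. PPARG thus supplied 49.4% of the summed PPAR level in parental and 8.88% in CARM1 KO cells, and PPARD 40.0% and 72.2%. The sum itself was 5.57 and 4.08 RPKM. These shares and sums depend on the length used. PPARG has 11981 bases of merged exons and a longest transcript of 4527, and PPARD has 4457 and 3774. The oxysterol receptors differed by less than 3-fold, in opposite directions. NR1H2 was 1.25-fold higher (1.13 to 1.40) with 602 and 779 reads and NR1H3 1.57-fold lower (1.25 to 1.98) with 190 and 125. NR1I3, the constitutive androstane receptor of the liver, had 31 and 9 reads, 3.56-fold lower (1.65 to 8.49). Its exons share 663 bases, 20.4% of their length, with TOMM40L on the opposite strand, which had 1222 and 624 reads, and the part of that overlap in the result was not tested. NR1I2, the pregnane X receptor, had 0 reads in both libraries, and NR1H4, the bile acid receptor, had 0 and 1.

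Of 9 PPAR response genes tested, 2 were higher (22.2%) and 3 lower (33.3%), against 12.3% and 11.3% of all genes, with a median log2 fold of -0.26. PDK4, a kinase that holds back pyruvate oxidation, had 5 and 80 reads, 15.5-fold higher (6.37 to 49.0), and LPL, lipoprotein lipase, had 326 and 1292 reads, 3.84-fold higher (3.40 to 4.35). CD36, a fatty acid transporter, had 95 and 8 reads, 12.3-fold lower (5.98 to 29.2), and FABP3, a fatty acid binding protein, had 105 and 26 reads, 4.17-fold lower (2.69 to 6.68). The list therefore held large differences in each direction. Of 6 response genes of the oxysterol and bile acid receptors tested, 1 was higher (16.7%) and 4 were lower (66.7%), against 12.3% and 11.3% of all genes, with a median of -1.71 against -0.03. MYLIP, a ubiquitin ligase that targets the LDL receptor, had 78 and 473 reads, 5.87-fold higher (4.61 to 7.56). LPCAT3, SCD and FASN, enzymes of phospholipid remodeling, fatty acid desaturation and fatty acid synthesis, were 4.35-fold, 4.32-fold and 3.54-fold lower, with 1095 and 260, 12211 and 2916, and 1299 and 379 reads.

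REV-ERB and ROR receptors, which repress and activate the same elements in clock and metabolic genes, held 2 of the higher calls. NR1D2, which encodes REV-ERB beta, had 706 parental and 3404 KO reads, 4.67-fold higher (4.30 to 5.07), a level of 3.93 and 18.3 RPKM. RORA had 53 and 402 reads, 7.34-fold higher (5.51 to 9.98), at 0.100 and 0.737 RPKM. RORB, at 39 and 69 reads, was 1.71-fold higher (1.14 to 2.61), and NR1D1, which encodes REV-ERB alpha, had 17 and 9 reads, a ratio whose interval included 1. NR1D2 made up 95.0% of the summed REV-ERB level in parental and 99.4% in CARM1 KO cells. It spans chromosome 3 from 23986777 to 24022108 (plus strand), and its neighbors had a median log2 fold of -0.09.

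The clock factors CLOCK and BMAL1 act through the letters CACGTG, and NR1D2 and the period genes are among their known targets, so these windows are shown. CACGTG, which reads the same on both strands, was found in 2548 of the 35116 windows (7.26%) and in 10 of the 106 windows of the receptors and coactivators (9.43%), which belonged to ESR2, NR1D2, NR2C1, NR2F2, NR5A1, PGR, PPARGC1A and RARA. The 250 bases before an NR1D2 start (chr3:23945871-23946120, plus strand) hold 2 matches, which begin 155 and 105 bases before the start. Beside them stand 30 bases around a match of PER1 (chr17:8152560-8152589, minus strand) and of TEF (chr22:41367248-41367277, plus strand), with the matched letters in capitals, all from GRCh38.p14 and written 5′ to 3′.
NR1D2: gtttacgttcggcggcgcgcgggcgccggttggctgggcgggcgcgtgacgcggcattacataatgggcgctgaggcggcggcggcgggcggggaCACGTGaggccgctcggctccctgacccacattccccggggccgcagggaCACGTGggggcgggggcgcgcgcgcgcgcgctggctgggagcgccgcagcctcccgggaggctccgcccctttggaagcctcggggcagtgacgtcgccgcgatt
PER1: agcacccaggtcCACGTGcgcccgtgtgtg
TEF: gcgcgacagctcCACGTGctgcagctggcg
Genes with these letters differed in either direction or were not called. NR1D2 was 4.67-fold higher, PER1 and TEF were lower, and the other clock genes with a match were BHLHE40, at 451 and 586 reads and 1.26-fold higher, and BHLHE41, at 2 and 3 reads. Of 13 clock genes tested, 0 were higher and 6 were lower, against 12.3% and 11.3% of all genes, while the list's median log2 fold was 0.21, on the other side of 0 from its calls. DBP and TEF, output factors of the clock, had 311 and 43 and 351 and 54 reads, 7.47-fold (5.42 to 10.5) and 6.71-fold (5.03 to 9.11) lower. PER1 was 6.81-fold lower, and PER2 had 294 and 70 reads, 4.34-fold lower (3.33 to 5.71). The other called genes were PER3 and CRY2, so the calls within the list fell on genes of the negative limb and on output factors. CRY1, also of the negative limb, went the other way, 1.53-fold higher (1.47 to 1.60) with 3541 and 5596 reads. BMAL1, with 105 and 310 reads, was 2.86-fold higher (2.28 to 3.60), NPAS2 2.22-fold and CLOCK 1.17-fold higher. None of these passed the rule. Each culture was sampled once, and a culture's clock phase at harvest is not given in the sources used here.

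The COUP-TF receptors, orphan receptors of development and cell identity, changed places. NR2F1, which encodes COUP-TFI, had 1581 parental and 2 KO reads, a ratio of 816 (226 to 6747) in favor of parental cells and the largest difference among the 43 genes. Its level was 11.6 RPKM in parental and 0.0143 RPKM in CARM1 KO cells. NR2F6 had 2179 and 310 reads, 7.26-fold lower (6.44 to 8.20), at 26.5 and 3.65 RPKM. NR2F2, which encodes COUP-TFII, had 398 and 1446 reads, 3.52-fold higher (3.15 to 3.94), at 1.98 and 6.97 RPKM. In parental cells NR2F6 held 66.0%, NR2F1 29.0% and NR2F2 4.94% of the summed level. In CARM1 KO cells the shares were 34.3%, 0.134% and 65.6%. The sum was 40.1 RPKM in parental and 10.6 RPKM in CARM1 KO cells, so the gain in NR2F2 was smaller than the loss in NR2F1 and NR2F6. NR2F1 spans chromosome 5 from 92918928 to 92930317 (plus strand), NR2F2 chromosome 15 from 96869167 to 96883492 (plus strand) and NR2F6 chromosome 19 from 17342692 to 17356728 (minus strand), and the median log2 folds of their neighbors were -0.35, -0.09 and -0.33.

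**Figure D4:**
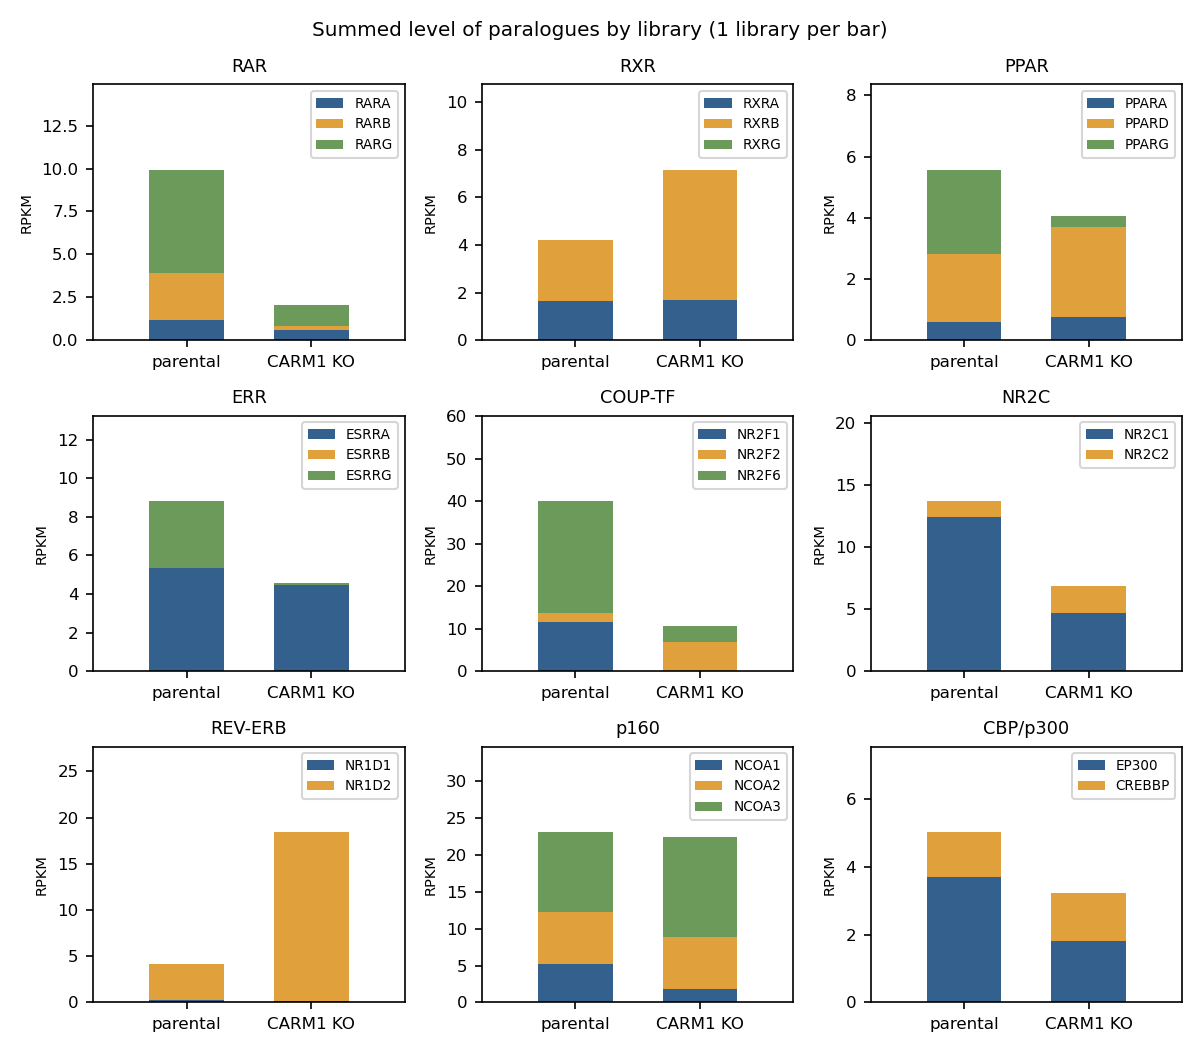
Summed level of related receptors and coactivators in RPKM, stacked by gene, with 1 library per bar and a separate axis from 0 for each family. The COUP-TF sum is 40.1 RPKM in parental and 10.6 in CARM1 KO cells with NR2F2 as the main part in CARM1 KO cells, while the p160 sum is 23.1 and 22.5.

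Of the other orphan receptors of this branch, NR2E1 was the one called. NR2C1, which encodes the testicular receptor TR2, had 2479 and 962 reads, 2.66-fold lower (2.47 to 2.87), and its relative NR2C2 had 485 and 845, 1.69-fold higher (1.51 to 1.89). Exons of NR2C2 share 60.5% of their length with MRPS25 on the opposite strand, which had 898 and 947 reads, so the count of NR2C2 is uncertain. NR2E1, the tailless receptor of neural stem cells, had 5 and 49 reads, 9.49-fold higher (3.80 to 30.5), at 0.0428 and 0.406 RPKM. HNF4G had 54 and 124 reads, 2.22-fold higher (1.60 to 3.12), and HNF4A, the liver and gut receptor, had 0 and 1 reads.

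NR6A1 stood out among the remaining receptors. NR6A1, the germ cell nuclear factor that shuts down pluripotency genes in early development, had 2374 parental and 70 KO reads, 35.0-fold lower (27.6 to 45.1), a level of 10.7 and 0.307 RPKM. It spans chromosome 9 from 127279554 to 127533590 (minus strand), and its neighbors had a median log2 fold of 0.74, of the opposite sign. NR5A2, the liver receptor homolog, had 7 and 5 reads, a ratio whose interval included 1, and NR5A1, the steroidogenic factor, had 1 and 0. The immediate early receptors of the NR4A group did not pass the rule. NR4A1 had 93 and 107 reads, 1.11-fold higher (0.836 to 1.49), NR4A3 had 29 and 11, 2.72-fold lower (1.32 to 6.04), and NR4A2 had 1 and 2. NR0B1, the X-linked receptor DAX1 that lacks a usual DNA-binding domain, had 6 and 34 reads, 5.49-fold higher (2.28 to 16.0), at 0.0970 and 0.532 RPKM. Its neighbors had a median log2 fold of -1.18, opposite to its own. NR0B2, its relative, had 0 reads in both libraries.

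Of the 18 called genes, 8 had neighbors whose median log2 fold had the same sign as their own. For PGR, ESRRG and NR0B1 this median exceeded 1 in size, and for the other 15 it lay between -0.57 and 0.74. The medians around PGR and ESRRG had the sign of the receptor and that around NR0B1 the other sign. The single neighbors went both ways, from -1.33 to 3.01 around PGR, from -2.75 to 2.02 around ESRRG and from -6.16 to 0.32 around NR0B1.

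Of the 7 coactivators, 1 was called higher (14.3%) and 0 lower, against 12.3% and 11.3% of all genes. Their median log2 fold was 0.0041, with quartiles at -1.24 and 0.21. Of the p160 genes, NCOA2 had 2189 and 2267 reads, a ratio of 1.00 (0.945 to 1.06) whose direction depended on the scaling. NCOA3 had 2831 and 3647 reads, 1.25-fold higher (1.19 to 1.31), and NCOA1 had 1458 and 533 reads, 2.82-fold lower (2.56 to 3.13). The summed p160 level was 23.1 RPKM in parental and 22.5 RPKM in CARM1 KO cells, with the share of NCOA3 at 46.9% and 60.3% and that of NCOA1 at 22.6% and 8.25%. The sum was thus nearly level while its make-up shifted from NCOA1 to NCOA3. Among the acetyltransferases, EP300 had 1336 and 674 reads, 2.05-fold lower (1.86 to 2.25), and CREBBP 647 and 712 reads, 1.07-fold higher (0.957 to 1.19). Their summed level was 5.03 and 3.24 RPKM, of which EP300 held 73.2% and 55.6%.

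The PGC-1 coactivators, regulators of mitochondrial biogenesis, differed in opposite directions. PPARGC1A had 1 and 28 reads, a ratio of 27.1 (4.48 to 1109), and its level of 0.00297 and 0.0804 RPKM was low in both libraries. PPARGC1B had 398 and 149 reads, 2.76-fold lower (2.28 to 3.35), and supplied 99.7% of the summed PGC-1 level in parental and 81.8% in CARM1 KO cells. PPARGC1B thus remained the main form although PPARGC1A was the one called.

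Of 8 corepressor genes tested, 0 were higher and 1 was lower (12.5%), with a median log2 fold of -0.36. TBL1X, a subunit of the NCoR and SMRT complexes, had 924 and 276 reads, 3.46-fold lower (3.02 to 3.97). NRIP1, which encodes the ligand-dependent corepressor RIP140, had 16194 and 6882 reads, 2.43-fold lower, and NCOR1 and GPS2 were 1.52-fold and 1.51-fold lower. Of 17 other coactivator genes tested, 2 were higher (11.8%) and 0 lower, with a median of -0.25. Among all genes, 12.3% were higher and 11.3% lower. The shares of 12.5% and 11.8% lay near these, and the shares of higher corepressors and lower coactivators were 0%. KAT2B, the acetyltransferase PCAF, had 245 and 785 reads, 3.10-fold higher (2.68 to 3.60) but 2.98-fold when scaled by protein-coding reads, and HELZ2, a helicase that binds PPARs, had 80 and 317 reads, 3.84-fold higher (2.99 to 4.97). KDM6A, a histone demethylase, had 2756 and 1054 reads, 2.70-fold lower. Over all 124 genes of the lists, each counted once, 97 were tested, of which 13 were higher (13.4%) and 20 lower (20.6%), with a median of -0.20. At an assumed coefficient of variation of 0.4, 22 of these 33 calls were lost, and those of CRABP2, STRA6, RDH10, CYP27A1, CA12, PER1, SGK1, PDK4, CD36, DBP and TEF remained. These lists share genes, and FKBP5, PER1 and ANGPTL4 each stand in more than 1 of them.

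**Figure D5:**
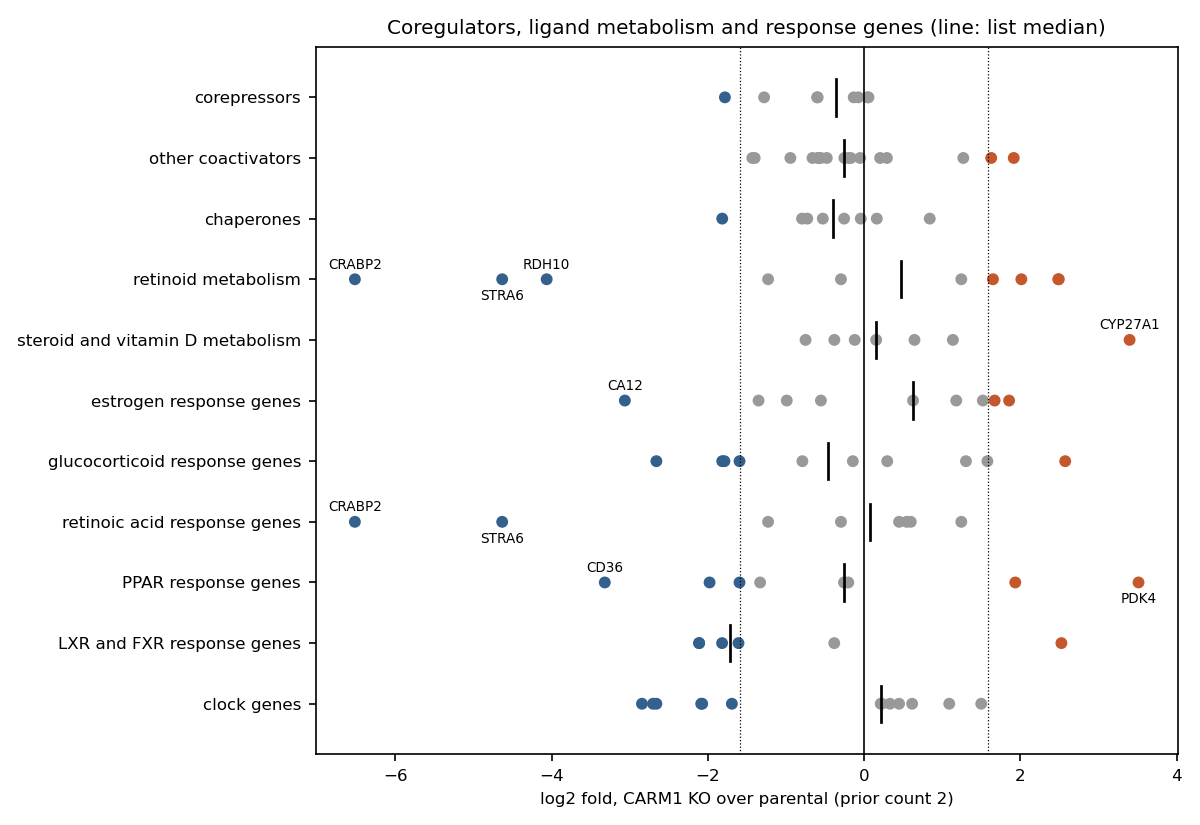
Log2 fold of CARM1 KO over parental (prior count of 2) for the coregulators, ligand-handling genes and response genes of each list, 1 point per gene with at least 10 reads, colored where called, with a vertical bar at the list's median and dotted lines at 3-fold. The clock list has 6 lower calls and a median of 0.21, and CRABP2, STRA6 and RDH10 are far to the left among the retinoid genes.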

How the data were processed

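Total RNA of 1 parental and 1 CARM1 KO culture was sequenced as paired 75 bp reads. Reads were placed on hg19 by the authors with bowtie2, and they used RSEM with Ensembl genes to make the deposited estimated counts, which are whole numbers without normalization. The RSEM release differs between the sources, and the Ensembl release and the use of strand are not given in the sources used here. The totals were 30741953 and 32300391 reads. RSEM shares reads between similar sequences, so counts of close paralogs are uncertain.

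Identifiers were named from GENCODE on GRCh37 (55501 of 57736 matched), and older symbols were matched through RefSeq synonyms. NR2E3, NCOA4 and PECAM1 were not analysed here, and 1 gene of the retinoid lists is not reported here, so the counts and medians of those lists are without it. Counts were scaled with TMM in edgeR 4.0.16 under R 4.3.3. The quasi-likelihood test of edgeR could not be fitted with 1 library per condition. Folds were given exact 95% binomial intervals (scipy 1.17.1), a count of 0 was set against 3 reads, and log2 folds for medians used a prior count of 2. Called genes had a fold above 3 with an interval without 1 and at least 10 reads. RPKM used merged exons and the TMM library sizes. Family sums and shares were given for merged exons only, and their dependence on the length used was not tested. Neighbors were the 5 nearest protein-coding genes tested on each side. The steps were tested on simulated data.

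Every listed receptor and coactivator was accounted for, and up to 4 genes with the largest log2 fold were named per other list. Further called genes of some lists were named after their values were seen. The members and lists were chosen with earlier results of these data known. Alternatives were 4 other scalings (DESeq2 1.42.0 size factors among them), minimum reads of 1 or 50, a fold of 2, the edgeR exact test with an assumed coefficient of variation of 0.12 or 0.4 at a false discovery rate of 0.05, and longest-transcript lengths. Promoters came from RefSeq on GRCh38.p14, and their positions are not comparable with the GRCh37 gene positions.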

Additional observations from a re-analysis of the deposited data

How the results depend on the processing

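The 10 higher and 8 lower calls among receptors and coactivators held under all 4 other scalings, which moved every log2 fold by less than 0.1, under a minimum of 1 read and in the edgeR exact test at an assumed coefficient of variation of 0.12. At 0.4, 3 were higher and 6 lower, with 532 and 894 among all genes. The calling rule used above gave 2280 and 2092 among all genes. The related genes then had 3 higher and 8 lower calls. With a fold above 2, 13 were higher and 13 lower, with 3344 and 3225 among all genes, and the related genes had 22 higher calls. With at least 50 reads, 8 were higher and 7 lower, with 1634 and 1226 among all genes. RXRA and NCOA2, neither called, changed direction with the scaling, while every called receptor and coactivator kept its call under each scaling. Among the related genes, KAT2B was 2.98-fold higher and lost its call with the library size of protein-coding genes, which gave DHRS3 one at 3.01-fold lower. SREBF1 lost its call with upper-quartile scaling at 2.99-fold lower, and DUSP1 gained one with upper-quartile and DESeq2 scaling, at 3.06-fold and 3.02-fold higher. No paired analysis was possible because each condition had 1 library, which also left none to drop in turn. The number of genes at 1 RPKM or more ranged from 25 to 26 in parental and from 18 to 22 in CARM1 KO cells over the scalings and the length used. Genes with under 50 reads rest on few counts and have wide intervals.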

Other observations

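Of 4 antisense RNAs that share exon bases with receptor genes, 3 had fewer reads in CARM1 KO cells and 1 had more. NR2F1-AS1, which lies opposite NR2F1 and shares 158 bases of its exons, had 291 parental and 11 KO reads, beside 1581 and 2 for NR2F1. RARA-AS1 had 28 and 5 reads, beside 172 and 90 for RARA. RORA-AS1 had 16 and 2 reads, whereas RORA itself had 53 and 402, so this pair differed in opposite directions. FGD5-AS1, which shares 155 bases with NR2C2, had 4727 and 6164 reads, beside 485 and 845 for NR2C2. These genes were chosen with their values in view, and reads of the shared stretches could not be assigned to a strand with certainty.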
